A study of Mus musculus with 10 samples.

Results

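The tissue inhibitors of metalloproteinases (TIMPs) are the 4 genes Timp1, Timp2, Timp3 and Timp4. They were taken by gene symbol from the 19942 symbols on a mouse whole-genome expression array, where each of the 4 had 1 probe. All 4 probes passed the filter on low values and were among the 16113 genes tested. The left ventricle of male C57BL/6J mice, operated at 8 weeks of age, was profiled after transverse aortic banding (TAB), a constriction of the aortic arch that puts the ventricle under pressure overload, or after a sham operation. The samples were taken on day 3, day 5, day 7, day 14 and day 28, with 1 per operation, giving 5 samples per operation and 10 arrays in all. The mice of both groups were of the same strain and sex with no genetic change named in the labels, and the number of mice behind a sample is not given in the sources used here. The TAB sample of day 14 carries that day in its title but day 15 in another label, and it was used as day 14. The 5 days stand in for replicates, so every p-value measures only the spread between these samples, time after surgery included.

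TIMPs are small secreted proteins that bind the active site of matrix metalloproteinases (MMPs) and block the breakdown of collagen and other matrix proteins. Timp1 is induced in injured and inflamed tissues and is widely read as a marker of fibrosis. Timp2 both inhibits MMPs and, together with the membrane protease Mmp14, takes part in the activation of pro-Mmp2. Timp3 stays bound to the extracellular matrix and also inhibits several ADAM and ADAMTS proteases, and Timp4 is the family member best known for expression in the heart. In a pressure-loaded ventricle the balance of proteases and inhibitors bears on how much matrix is laid down and removed.

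Only expression was measured here, and the promoters are shown so that the sequence in front of each gene can be read beside its response. The 250 bases before the annotated start of each TIMP gene are given 5′ to 3′ on the strand of the gene, from RefSeq on build GRCm38.p6. Capitals mark matches to the ETS motif CAGGAAG and the Sp1 motif GGGCGG or their reverse complements. The stretches are chrX:20869916-20870165 on the plus strand for Timp1, chr11:118355412-118355661 on the minus strand for Timp2, chr10:86300162-86300411 on the plus strand for Timp3 and chr6:115252206-115252455 on the minus strand for Timp4.
Timp1: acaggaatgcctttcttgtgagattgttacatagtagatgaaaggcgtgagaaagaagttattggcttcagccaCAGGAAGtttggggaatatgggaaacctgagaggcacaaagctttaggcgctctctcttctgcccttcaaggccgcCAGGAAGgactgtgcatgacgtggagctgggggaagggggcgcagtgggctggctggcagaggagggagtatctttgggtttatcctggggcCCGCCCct
Timp2: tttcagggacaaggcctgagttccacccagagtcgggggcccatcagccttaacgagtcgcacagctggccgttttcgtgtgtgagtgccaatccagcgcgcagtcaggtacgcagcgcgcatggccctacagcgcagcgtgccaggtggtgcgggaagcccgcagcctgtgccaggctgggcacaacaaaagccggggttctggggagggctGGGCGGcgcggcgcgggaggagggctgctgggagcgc
Timp3: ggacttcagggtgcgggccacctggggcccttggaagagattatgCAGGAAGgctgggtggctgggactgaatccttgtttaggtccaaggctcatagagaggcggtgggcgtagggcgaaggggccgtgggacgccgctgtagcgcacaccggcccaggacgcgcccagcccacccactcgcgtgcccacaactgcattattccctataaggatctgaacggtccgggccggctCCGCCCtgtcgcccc
Timp4: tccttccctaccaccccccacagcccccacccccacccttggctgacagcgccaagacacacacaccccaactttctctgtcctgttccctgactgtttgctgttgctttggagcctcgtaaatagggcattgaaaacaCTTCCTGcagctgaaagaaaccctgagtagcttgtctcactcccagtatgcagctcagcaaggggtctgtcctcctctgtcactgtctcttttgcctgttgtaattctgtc

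Over the 300-base window that runs on to 50 bases after the start, Timp1 held 8 CpG dinucleotides and Timp4 held 2, against 25 for Timp2 and 24 for Timp3. The GC content was 55.0% for Timp1, 68.7% for Timp2, 67.0% for Timp3 and 53.3% for Timp4. The median of all 32851 windows was 52.7% GC and 7 CpG dinucleotides. Timp1, with 3 matches, had more ETS matches than the other members. They begin at positions -176, -100 and 40 from the start. Timp3 had 1, at -205, Timp4 had 1, at -111, and Timp2 had none, while 13.3% of all windows hold this motif. Sp1 matches lay in the windows of Timp1 (-8), Timp2 (-37) and Timp3 (-15 and 14) and in 35.7% of all windows. The window of Timp1 also held TGAGTAA, an AP-1-like motif, from position 27 to 33, which 2.68% of all windows hold. None of the 4 windows matched the AP-1 motif TGACTCA, which 5.20% of all windows hold, or the STAT motif TTCNNNGAA, which 8.30% hold. The Runx motif TGTGGT (16.8% of all windows) was also without a match, as were the TATA box with the letters TATAAA (13.6%) and the E-box with the letters CACGTG (7.15%). Both strands were searched, no matches overlapped in the 4 windows, and a match is a description of letters, not a site. By the annotation, 3 of the 4 genes lie inside a synapsin gene: Timp1 inside Syn1 and Timp4 inside Syn2, both on the opposite strand, and Timp3 inside Syn3.

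Timp1 was far higher in TAB than in sham hearts on every day, and its TAB levels were highest in the first week and lowest on day 28. The normalized intensity of Timp1 in the TAB samples was 7623, 12990, 9534, 1772 and 807, in the order of the 5 days. In the sham samples it was 121, 114, 160, 128 and 130. All 5 TAB samples lay above all 5 sham samples, which held for 9.99% of all genes, the TAB samples of days 3 to 7 were the 3 brightest, and the sham samples stayed together. On the log2 scale the sham samples of Timp1 spanned 6.84 to 7.32 (SD 0.18, n = 5) and the TAB samples 9.66 to 13.67 (SD 1.73, n = 5). Within the TAB series the order was day 5, day 7, day 3, day 14 and day 28. The levels of days 3 and 7 lay 0.32 apart on the log2 scale, less than the 0.49 between the highest and the lowest sham sample, while the step from day 7 to day 14 was 2.43 and that from day 14 to day 28 was 1.13.

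Relative to the sham sample of the day, Timp1 was 62.8-, 114-, 59.5-, 13.8- and 6.22-fold higher in TAB, in the order of the days. A log2 ratio of TAB over sham beyond 2 SDs of all genes that day was called differential expression (DE). This rule called 5.21%, 5.52%, 5.66%, 5.67% and 5.88% of all genes, from the first day to the last. Timp1 was DE on 5 of 5 days, as were 56 genes (0.348%) that were higher in TAB on every day. Averaged over the days, Timp1 was higher by 5.02 on the log2 scale (SE 0.63, 95% interval 3.49 to 6.56), a 32.5-fold difference, with an adjusted p = 0.0154 in limma with day as a block. That fit called 2749 of 16113 genes (17.1%), 1481 of them (9.19%) higher and 1268 (7.87%) lower in TAB, a split that median scaling alone turned into 1782 and 855. By absolute effect Timp1 ranked first of the genes tested, also under every alternative processing except the one that removed no probe, where it ranked 4 of 19942. Without day 3, 5 or 7 the effect of Timp1 was 4.79, 4.57 and 4.81, and the call was lost, with adjusted p-values of 0.0649, 0.0546 and 0.0691, while the genes called overall fell to 30, 98 and 22.

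**Figure D1:**
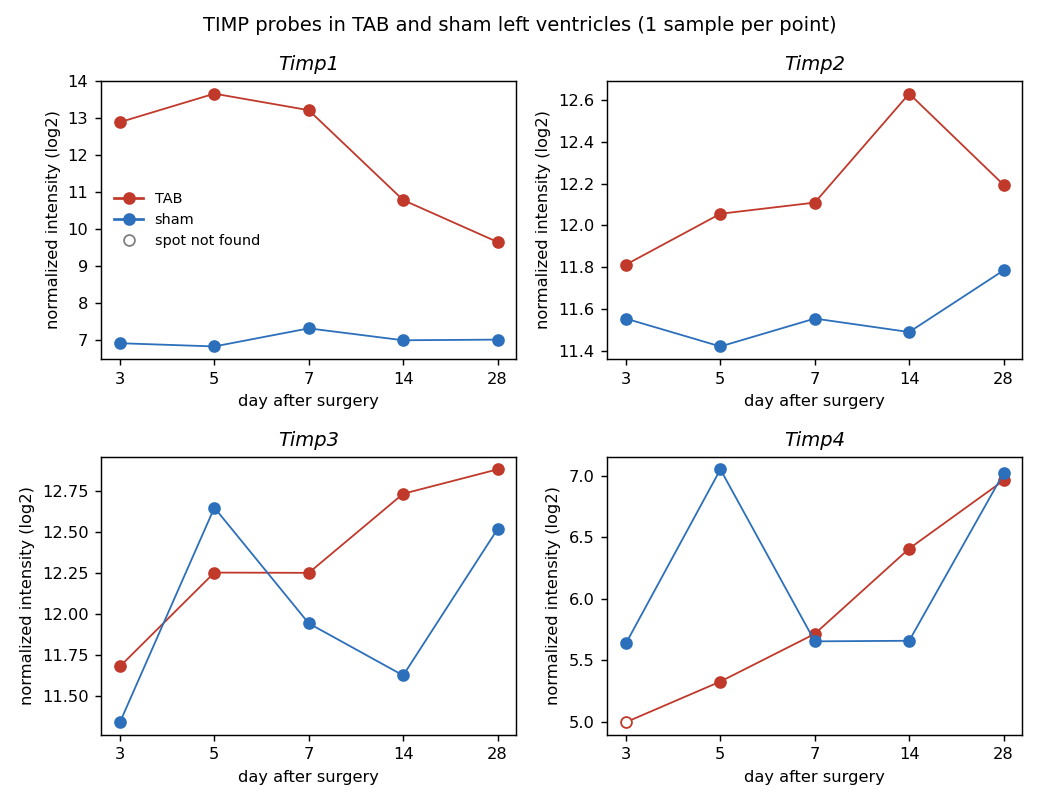
Normalized intensity (log2) of the 4 TIMP probes against the day after surgery in TAB (red) and sham (blue) samples, 1 sample per point, with a scale of its own in each panel. Timp1 and Timp2 are higher in all 5 TAB samples than in all 5 sham samples, the groups overlap for Timp3 and Timp4, and the open circle is a Timp4 spot that was not found.

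The sham signal of Timp1 was low. Its raw intensity in the sham samples was 110 to 154, against array medians of 34 to 57 over all probes, and the spot was found on all 10 arrays. The deposited detection p-value of Timp1, whose computation is not stated, was over 0.05 on the sham arrays of days 3, 5 and 14 (0.674, 0.838 and 0.624) and under it on those of days 7 and 28 (0.00528 and 0.0178). The folds of days 3, 5 and 14 are taken over those dim sham values. In the TAB samples the raw intensity of Timp1 ranged from 968 to 12622, below saturation.

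The Timp1 ratio was lower on the later days, by a difference that did not pass the correction over all genes. The mean log2 ratio of Timp1 was 6.23 on days 3 to 7 and 3.21 on days 14 and 28, a difference of -3.02 (SE 0.48, unadjusted p = 0.00145 and adjusted p = 0.302 in limma). For this difference limma called 0 genes (0.0%) of 16113, 1766 genes had an unadjusted p under 0.05, and the lowest adjusted p was 0.191. Among probes found on all 10 arrays only, the adjusted p of Timp1 was 0.0493, and 18 genes were called. Genes called for this difference numbered 34 with trend and robust on, 10 with 50 added before log2, 7 without the lowest tertile of genes and 5 without the block by day, and Timp1 was not among them (adjusted p 0.0650 to 0.126).

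Markers of other cells were counted in the same samples, where 9.19% of all genes were called higher and 7.87% lower. Fibroblast markers were higher in TAB for 5 of 7 tested of 9 listed, with a summed normalized intensity of 29445 to 47117 in TAB and 19840 to 23179 in sham, and Col1a1 and Pdgfra were removed by the filter on low values. Macrophage markers were higher for 7 of 7 tested, with sums of 2952 to 7071 and 1857 to 2296. Neither sum overlapped between the groups, nor did that of the erythroid markers, none of which was called. Endothelial markers were called in 0 of 6 (5971 to 8739 in TAB and 5998 to 7293 in sham) and cardiomyocyte markers in 0 of 7 (214269 to 226572 and 219377 to 251694), with Myl2 saturated on 9 arrays. The heart muscle markers were thus present in every sample. Neutrophil markers were called in 1 of 5, S100a8, whose spot was found on no array, with sums of 125 to 282 and 99.2 to 182. T cell markers were higher in 2 and lower in 1 of 6 (291 to 374 and 319 to 463). The higher ones, Cd3d and Lck, had spots found on no sham array, while Cd3e, the lower one, was found on all 10 arrays. Smooth muscle and pericyte markers were higher in 1 of 4 (1725 to 2325 and 1621 to 2478), Tagln, whose spot was found on no sham array. Erythroid markers were called in 0 of 2 (417 to 821 and 299.8 to 369.7). The part of these cells in the values of the TIMPs and of the genes around them was not tested, and in bulk tissue more cells of a type and more RNA per cell cannot be told apart.

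Timp2 was higher in TAB than in sham hearts by a small amount on each day. The log2 intensity of Timp2 in the TAB samples was 11.81, 12.06, 12.11, 12.63 and 12.19, in the order of the days. In the sham samples of Timp2 it was 11.55, 11.42, 11.55, 11.49 and 11.78. All 5 TAB samples lay above all 5 sham samples, as for 9.99% of all genes. The lowest TAB sample, of day 3, lay just above the highest sham sample, of day 28. The ratios of Timp2 were 0.26, 0.64, 0.56, 1.14 and 0.41, highest on day 14, and it was DE on none of these days. The average effect of Timp2 was 0.60 (SE 0.15, 95% interval 0.23 to 0.97), a 1.52-fold difference with an adjusted p = 0.0450 in limma. This call did not hold without any 1 of the 5 days (effects 0.46 to 0.69, adjusted p 0.0628 to 0.127), nor with every probe as its own row (adjusted p = 0.0501) or with no probe removed (adjusted p = 0.0839). The effect of days 14 and 28 exceeded that of days 3 to 7 by 0.29 (adjusted p = 0.716), and by 0.18 without day 3, -0.073 without day 14 and 0.66 without day 28.

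Timp3 varied among the sham samples more than it differed between the operations. The log2 intensity of Timp3 in the sham samples was 11.34, 12.65, 11.94, 11.62 and 12.52, in the order of the days. In the TAB samples of Timp3 it was 11.68, 12.25, 12.25, 12.74 and 12.89. The TAB samples of Timp3 were at their lowest on day 3 and at their highest on day 28, while the sham samples of days 5 and 28 stood above the other three, and the groups overlapped. TAB was above sham on 4 of 5 days, with ratios of 0.34, -0.40, 0.31, 1.11 and 0.37. The average effect of Timp3 was 0.35 (SE 0.21, 95% interval -0.17 to 0.86, adjusted p = 0.294 in limma), and the interval leaves room for a rise of the size seen for Timp2. Without day 14 the effect was 0.15, and without day 5 it was 0.53. The difference between late and early days was 0.65 (adjusted p = 0.532), and it was 0.41 without day 5, 0.28 without day 14 and 1.03 without day 28.

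Timp4 gave a dim signal with no difference between the operations that passed the test. The raw intensity of Timp4 in the TAB samples was 19, 42, 51, 78 and 151, in the order of the days, and the spot was not found on the TAB array of day 3. In the sham samples it was 56, 127, 45, 51 and 154. After normalization the log2 intensity of Timp4 was 5.00, 5.33, 5.72, 6.41 and 6.96 in TAB and 5.64, 7.05, 5.65, 5.66 and 7.02 in sham. Each later TAB sample of Timp4 was brighter than the one before it, while the sham samples of days 5 and 28 stood apart from the other three. TAB was above sham on 2 of 5 days, and the largest ratio in either direction was -1.72, on day 5. The average effect of Timp4 was -0.32 (SE 0.35, 95% interval -1.16 to 0.52, adjusted p = 0.546 in limma), and it was 0.027 without day 5 and -0.59 without day 14. The difference between late and early days was 1.11 (adjusted p = 0.519), and it was 0.64 without day 5 and 0.71 without day 14. The detection p-value of Timp4 was under 0.05 on 1 array only, the sham array of day 28.

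**Figure D2:**
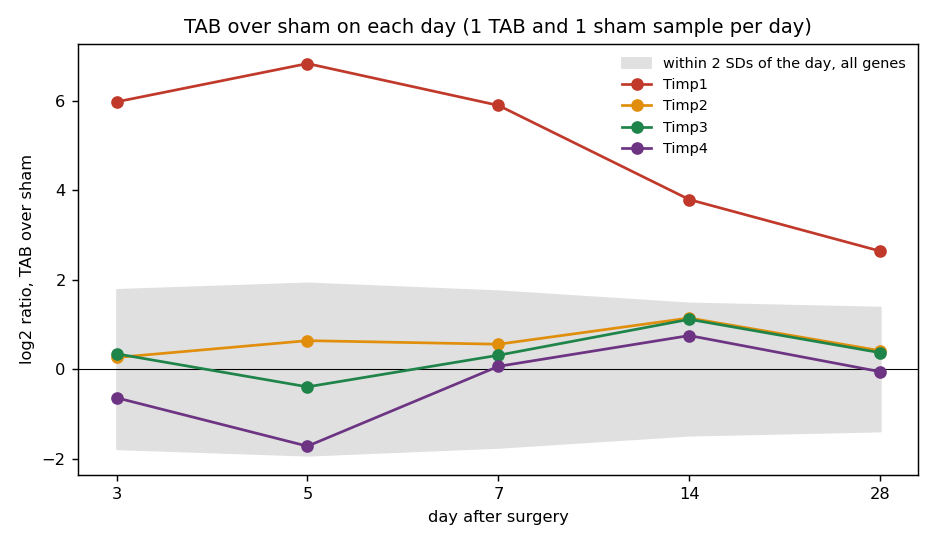
Log2 ratio of TAB over sham for each TIMP against the day after surgery, from 1 TAB and 1 sham sample per day, with the grey band covering 2 SDs of all genes on that day. Timp1 lies above the band on all 5 days (6.83 on day 5, 2.64 on day 28) and the other members lie inside it.

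The members were also set against each other within each day. The log2 ratio of Timp1 exceeded that of Timp2 by 4.42, that of Timp3 by 4.68 and that of Timp4 by 5.35 on average, on 5 of 5 days in each case. The ratio of Timp2 exceeded that of Timp4 by 0.92, and the ratio of Timp3 exceeded that of Timp4 by 0.67, again on 5 of 5 days. Both rest on the dim spot of Timp4, whose detection p-value was over 0.05 on 9 of 10 arrays. Each of these 5 differences had an exact two-sided permutation p = 0.0625, which is the smallest that 5 days allow, and an adjusted p = 0.075 over the 6 pairs. The ratio of Timp2 exceeded that of Timp3 by 0.25, on 4 of 5 days (exact permutation p = 0.3125). Without day 5 this difference was 0.059, and that of Timp2 and Timp4 was 0.56. With 5 days this test could not reach 0.05 for any pair.

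The members differed in their spread between sham samples. The SD over the 5 sham samples was 0.18 for Timp1, 0.14 for Timp2, 0.56 for Timp3 and 0.76 for Timp4 on the log2 scale, against a median of 0.253 over all genes. For Timp3, 17.7% of all genes had a higher sham SD, and for Timp4 9.35%. The sham samples of days 5 and 28 were the highest for both genes. Clock genes differed between the same samples. In the sham samples, taken in the order of the days, the log2 intensity of Per2, a repressor in the circadian clock, was 7.22, 10.88, 9.79, 6.72 and 10.89. That of Dbp, a clock-controlled transcription factor, was 8.01, 11.49, 12.52, 8.59 and 12.36. That of Arntl, the activator whose mRNA runs opposite to Per2, was 9.87, 5.66, 6.23, 9.98 and 5.36. Per2 was highest in the sham samples of days 5 and 28, as Timp3 and Timp4 were, whereas Dbp was highest on day 7.

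In the TAB samples Per2 was 7.72, 9.43, 9.85, 10.15 and 10.33 and Arntl 9.76, 6.88, 7.31, 8.30 and 5.60 on the same days, so the clock genes of a TAB sample and of its sham partner were not alike on every day. On day 14 Per2 was 10.15 in TAB and 6.72 in sham, and day 14 held the highest ratio of Timp2, Timp3 and Timp4. The time of day at which hearts were taken is not given in the sources used here. The 3 clock genes were looked at after the values of the members were seen, and their part in the values of Timp3 and Timp4 was not tested.

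**Figure D3:**
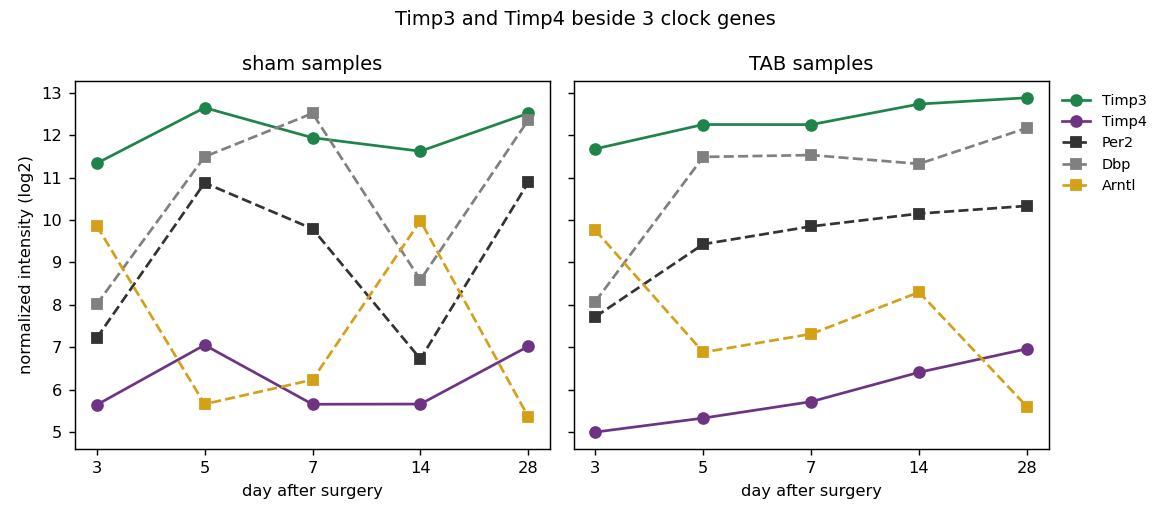
Normalized intensity (log2) of Timp3, Timp4 and the clock genes Per2, Dbp and Arntl against the day after surgery in the sham samples (left) and the TAB samples (right), 1 sample per point. In sham, Timp3, Timp4 and Per2 are highest on days 5 and 28 and Arntl is lowest on those days.

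The genes whose pattern over the 10 samples was most like that of a member were taken by Pearson correlation of log2 values, among 10535 genes found on all arrays. The points share their samples, and for Timp1 the difference between TAB and sham makes up most of the pattern. For Timp1 these were Fxyd5 (r = 0.997), Olfml3 (0.995), Mvp (0.995), Shisa4 (0.995) and Capg (0.993), with TAB effects of 0.79 for Shisa4 to 1.91 for Capg, each smaller than that of Timp1. For Timp2 they included Prrg3 (r = 0.970), Sfrp2 (0.949), Itih5 (0.948) and Ppp1r9b (0.948). For Timp3 they were Cdc42ep4 (r = 0.966), Ramp2 (0.957), Ptgs1 (0.952), Rerg (0.952) and Nploc4 (0.950), none of which was called in the TAB effect. For Timp4 they were Tsc22d3 (r = 0.977), a gene known for induction by glucocorticoids, Rasgrp2 (0.962), Gpr116 (0.959), 1190002H23Rik (0.957) and Rere (0.955), and none of these was called either. The lists of the 4 members share no gene.

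Among genes of the MMP, ADAM and ADAMTS protease families, more were higher than lower in TAB. Of 51 listed MMP, ADAM and ADAMTS genes 35 were tested, and 11 of these (31.4%) were called higher and 4 (11.4%) lower, against 9.19% and 7.87% of all genes. Their median effect was 0.32 on the log2 scale, against -0.034 over all genes. The count of higher calls fell to 1 without day 3, without day 5 or without day 7, to 7 without day 14 and to 5 with no probe removed. Of the 32 genes called in the lists of proteases, partners, further inhibitors and upstream genes, 31 were no longer called without day 3, 30 without day 5, 31 without day 7, 18 without day 14 and 2 without day 28, and Adamts8 was called each time. The genes called overall numbered 947 without day 14 and 2753 without day 28.

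Of the 13 MMPs tested, 3 were higher, 1 was lower and 9 were not called (median effect 0.18). Mmp2, the gelatinase whose proform is activated with the help of Timp2 and Mmp14, was 1.50 higher (SE 0.26, adjusted p = 0.0233 in limma), from 9.72 to 10.56 in sham and from 11.36 to 12.56 in TAB. The ratio of Mmp2 was highest on day 14 (2.57), as was that of Timp2. Mmp14, the membrane-anchored protease that activates Mmp2, was 1.30 higher (SE 0.23, adjusted p = 0.0233), and its ratio was highest on day 5 (2.02). The groups of Mmp14 overlapped and those of Mmp2 did not. Mmp23 was 1.67 higher (SE 0.17, adjusted p = 0.0120), with sham samples within 7.21 to 7.28 and TAB samples within 8.27 to 9.23. Mmp15, another membrane-anchored MMP, was lower, with an effect of -0.50 (adjusted p = 0.0489), a call lost with median scaling alone (-0.40, adjusted p = 0.0991), with normalization within each operation (-0.40, adjusted p = 0.0824) and with every probe as its own row (adjusted p = 0.0542). Mmp9, a gelatinase of leukocytes, had an effect of 0.050 (adjusted p = 0.871), and Mmp3, a stromelysin, one of 0.92 (adjusted p = 0.0842).

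Of the 8 ADAM sheddases tested, 4 were higher and 1 was lower (median effect 0.69). These are membrane proteases that release the outer part of other membrane proteins. Adam9 was 0.91 higher (SE 0.14, adjusted p = 0.0205) and Adam15 0.63 higher (SE 0.10, adjusted p = 0.0193), on 5 of 5 days each, and the call of Adam15 was lost with the mean of all its probes (0.45, adjusted p = 0.0526). Adam12 was called higher (adjusted p = 0.0497), with the spot found on 4 TAB arrays and on no sham array. Its fold was 5.61 over a floor set by the dimmest spots found, which is not a strict lower bound. The groups of Adam12 overlapped, and the call was lost with median scaling alone (adjusted p = 0.0529), with the mean of each rank (adjusted p = 0.0507) and with every probe as its own row (adjusted p = 0.0543). Adam28 was lower, with an effect of -0.86 (adjusted p = 0.0265). Adam17, the sheddase of tumour necrosis factor that Timp3 inhibits, was removed by the filter on low values.

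Of the 14 ADAMTS proteases tested, which cleave proteoglycans and procollagens, 4 were higher and 2 lower (median effect 0.010). Adamts8 was called higher (adjusted p = 0.0043), with the spot found on all 5 TAB arrays and on no sham array. Its fold over the floor of the dimmest spots found was 8.83, again not a strict lower bound. Adamts8 was DE on 5 of 5 days, but by ratios over sham values of a spot that was not found. Adamts2, which trims the end of procollagen, was 1.56 higher (SE 0.20, adjusted p = 0.0154). Adamts19 was lower, with an effect of -0.88 (adjusted p = 0.0260). Adamts12 was called lower with a fitted effect of -0.62 (adjusted p = 0.0400), but its spot was found on 1 sham array and on no TAB array, so no fold is given, and its direction turned with no probe removed (0.63). The call of Adamts12 was also lost with 50 added before log2 (-0.12, adjusted p = 0.210), with median scaling alone (adjusted p = 0.0596) and with trend and robust on (adjusted p = 0.154). Adamts1 and Adamts5, both aggrecan-cleaving enzymes, had effects of 0.32 (adjusted p = 0.261) and 0.14 (adjusted p = 0.550).

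**Figure D4:**
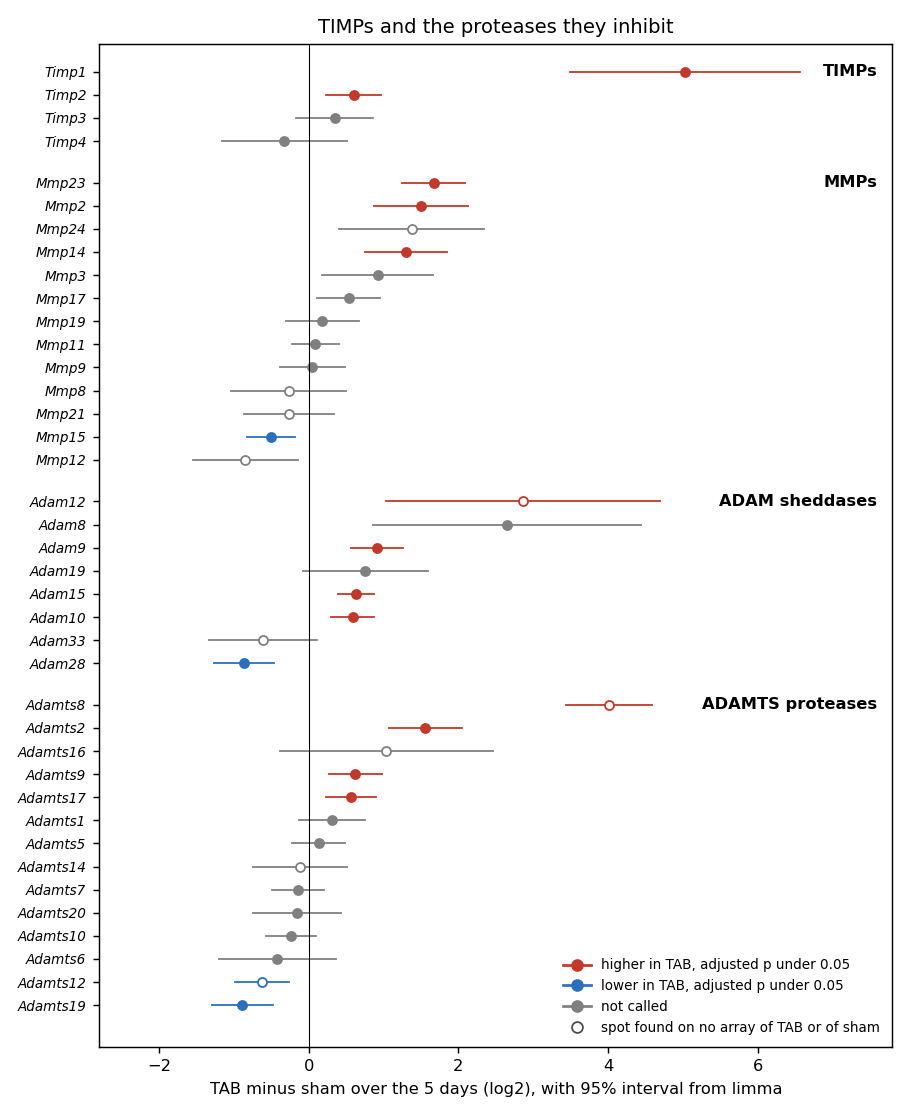
Average TAB minus sham difference (log2) of the 4 TIMPs and 35 proteases, with 95% intervals from limma over 5 TAB and 5 sham samples and day as a block. Timp1 lies farthest to the right at 5.02, and open points had no spot found on the arrays of at least one operation, so that their position is not a measured fold.

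Of 9 genes listed as receptors and binding partners of TIMPs, 3 (33.3%) were higher in TAB, none was lower and 6 were not called, against 9.19% higher and 7.87% lower of all genes (median effect 0.39). Cd63, the tetraspanin through which Timp1 reaches integrin signalling, was 0.68 higher (SE 0.11, adjusted p = 0.0208 in limma), with ratios of 0.56 to 0.97. Itgb1, the integrin chain in that complex, was 0.45 higher (SE 0.10, adjusted p = 0.0359), a call lost with the mean of all its probes (0.31, adjusted p = 0.0966). Lrp1, the endocytic receptor that clears TIMPs and MMPs, was 0.83 higher (SE 0.18, adjusted p = 0.0339). Kdr, the receptor for vascular endothelial growth factor, had an effect of 0.21 (adjusted p = 0.488), and Efemp1 one of -1.18 (adjusted p = 0.0607).

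Among 6 further inhibitor genes, 3 were higher and none was lower, against 9.19% and 7.87% of all genes (median effect 0.96). Among these were Pcolce, an enhancer of procollagen processing, at 1.81 (SE 0.22, adjusted p = 0.0140 in limma), and Tfpi2, an inhibitor of serine proteases, at 1.51 (SE 0.25, adjusted p = 0.0224). Neither has the inhibition of MMPs as its best-known role. Reck, a membrane-anchored inhibitor of MMPs, had an effect of 0.41 (adjusted p = 0.0735), and A2m, a broad protease trap, was found on no array. Of the synapsin genes that hold 3 of the TIMPs, Syn1 had an effect of -0.62 (adjusted p = 0.203) and Syn2 one of -0.23 (adjusted p = 0.673), and Syn3 was removed by the filter.

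Pathways known to act upstream of Timp1 were looked at next. In the interleukin-6 family with Stat3, 4 of 11 genes tested (36.4%) were higher and 2 (18.2%) lower, against 9.19% and 7.87% of all genes (median effect 0.21). Il6, the cytokine that induces Timp1 in many cells, was called higher (adjusted p = 0.0210 in limma). Its spot was found on 3 TAB arrays and on no sham array. The fold of Il6 over the floor of the dimmest spots found was 4.37, which is not a strict lower bound. Osmr, the receptor of oncostatin M, was 1.00 higher (SE 0.18, adjusted p = 0.0238) and Il11 0.80 higher (SE 0.14, adjusted p = 0.0229), while Clcf1, another cytokine of the family, was lower, with an effect of -0.85 (adjusted p = 0.0344). The ratios of Osmr were 1.32, 1.28, 1.26, 0.82 and 0.34 over the days. They were lower on days 14 and 28 than on days 3 to 7, by a difference that was not called (adjusted p = 0.412 in limma).

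Of 5 TGF-beta ligands and receptors tested, 3 were higher and none was lower, against 9.19% and 7.87% of all genes (median effect 0.91). TGF-beta drives matrix production by fibroblasts. Tgfb2 was 1.49 higher (SE 0.28, adjusted p = 0.0264), Tgfb3 1.42 (SE 0.20, adjusted p = 0.0179) and the receptor Tgfbr2 0.91 (SE 0.13, adjusted p = 0.0172), while Tgfb1 had an effect of -0.34 (adjusted p = 0.102). With the brightest probe of each gene, Tgfb2 had an effect of 0.40 and was not called (adjusted p = 0.0616). Of 9 AP-1, Egr1 and Runx1 genes 1 was higher and 1 lower, 11.1% in each direction and near the shares of all genes (median effect 0.0067). Runx1, a transcription factor of blood cells and stressed heart muscle, was 2.11 higher (SE 0.40, adjusted p = 0.0261), with the spot found on 2 of 5 sham arrays. Fosl2, an AP-1 subunit, was lower, with an effect of -0.63 (adjusted p = 0.0412), a call lost with median scaling alone (adjusted p = 0.0588) and with normalization within each operation (adjusted p = 0.0578). With 50 added before log2, the effects of Runx1, Il11 and Tfpi2 were 0.89, 0.47 and 0.86, and the fitted effects of Adam12, Adamts8 and Il6, whose sham spots were not found, were 1.03, 1.2 and 0.83.

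**Figure D5:**
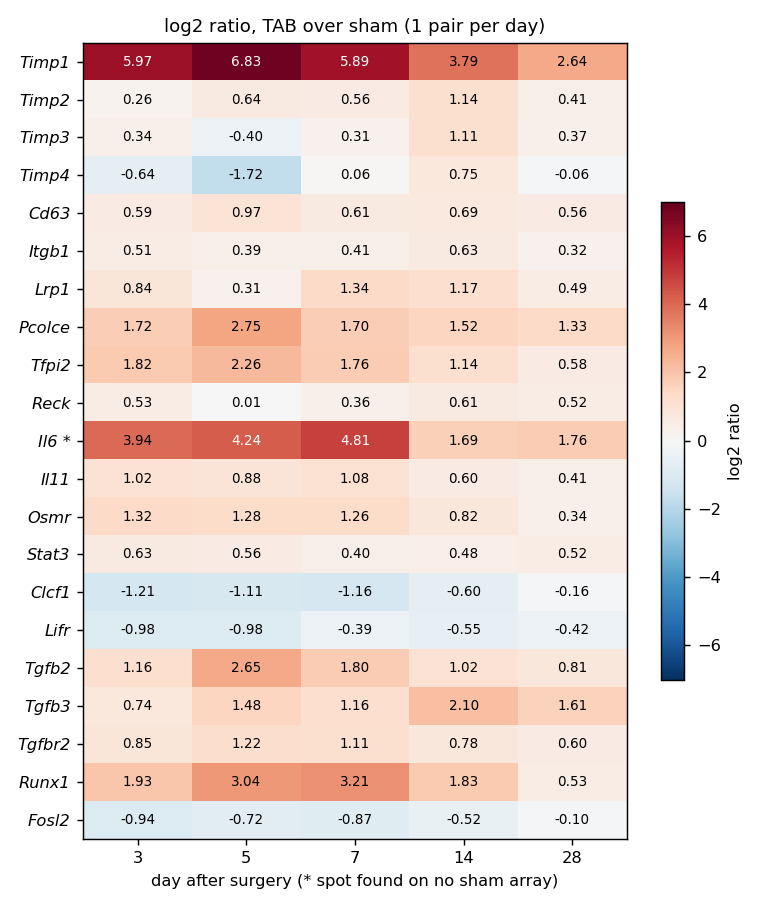
Log2 ratio of TAB over sham on each day for the TIMPs, their partners, further inhibitors and upstream genes, with each value written in its cell. Timp1 has the highest ratio of the genes shown on each of the 5 days, from 6.83 on day 5 to 2.64 on day 28, and Il6, marked with a star, had no sham spot found, so its ratios are not measured folds.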

How the data were processed

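Left-ventricle RNA, labelled with Cy5, was profiled on the 1-colour Mouse Whole Genome OneArray v2, with spots read with GenePix 4.1 according to the study's methods. The authors deposited raw intensity per probe and array, not scaled between arrays, with background handling not stated in the sources used here. The deposited detection p-value of a spot was not used for calls, and the deposited flag has a code that is not stated, of which the negative value was read as a spot not found. Spots found made up 52.7% to 59.8% of an array, and precision is limited by the small number of arrays.

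Each of the 10 arrays was scaled to a common median, probes below a scaled intensity of 1 in any sample were removed (6447 of 26423), and quantile normalization gave each rank its median over the arrays. After log2 transformation, the probe whose absolute log2 ratios summed highest stood for its gene (each TIMP has 1 probe). The average TAB effect and the difference between days 14 and 28 and days 3 to 7 were tested with limma 3.58.1 (R 4.3.3, lmFit and eBayes) with day as a block, with Benjamini-Hochberg adjusted p-values called under 0.05. Member pairs were compared by an exact permutation of signs over the 5 days. Other steps used scipy 1.17.1, pandas 2.3.3, numpy 2.4.6 and matplotlib 3.10.9 under Python 3.11.15. The fits were tested on simulated data. Where no spot of a group was found, the fold sets the bright group's mean against a floor. The floor is the dimmest spot found on each array of the other group, or the dim spot itself where that was higher. The 1st percentile of found spots was 25 to 27 in raw intensity. The dimmest spot found can lie below this, so the fold is not a strict lower bound.

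Samples were paired by day, as in the study's ratios. Within a day, how far the TAB sample lay from the TAB mean correlated over probes with the same measure in sham at r = 0.112, 0.00148, 0.0466, 0.0164 and 0.0163, in the order of the days. Genes named are the TIMPs, the genes called in each pathway list (the 4 with the largest absolute effect where more were called) and the 5 genes most like each member. Mmp3, Mmp9, Adam17, Adamts1, Adamts5, Kdr, Efemp1, Reck, A2m, Syn1, Syn2, Tgfb1 and further genes in the plots were added after their values were seen. The members and lists were chosen with earlier results of these data known. Alternatives covered normalization, low-value filters, probe choice, the variance model, the block and leaving out each day. The miRNA arrays of the study were not used here. Some genes that the naming rule covers are not reported here.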

Additional observations from a re-analysis of the deposited data

How the results depend on the processing

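Timp1 kept its direction under all 17 alternatives run, with effects from 4.57 to 5.62, and its call was lost only without day 3, 5 or 7 (leaving out a day in turn gave 4.57 to 5.62). Timp2 was higher under all alternatives (0.46 to 0.73). Its call was lost with no probe removed (0.60, adjusted p = 0.0839), with every probe as its own row (0.60, adjusted p = 0.0501) and without any 1 day (0.46 to 0.69), where fewer samples remain. Timp3 stayed uncalled at 0.15 to 0.53. Timp4, not among the probes found on all 10 arrays, ranged from -0.59 to 0.027 when a day was left out and turned sign without day 5. The late minus early difference of Timp2 ranged from -0.073 to 0.66 without a day and turned sign without day 14. That of Timp1 passed the threshold among probes found on all 10 arrays (-3.02, adjusted p = 0.0493). Adamts12 turned to 0.63 with no probe removed, which ended or turned 21 of the 32 calls in the lists. The cause of these changes was not tested.

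Genes called numbered 4469 with 50 added before log2, 677 with no probe removed, 4194 with trend and robust on, and 22 to 2753 without a day. With median scaling only, 1782 genes were called higher and 855 lower, and with normalization within each operation 1871 and 950, against 1481 and 1268. Metalloproteases called higher and lower numbered 5 and 0 with no probe removed, 1 to 14 and 0 to 2 without a day. Timp2 and Timp3 were each DE on 1 day with an absolute log2 ratio of at least 1, with 50 added, without the lowest tertile of genes or among probes found on all arrays, and Timp4 on 1 day with that ratio limit or without the lowest tertile. Without the replicate block by day the adjusted p-values were 0.00210 for Timp1, 0.0193 for Timp2, 0.442 for Timp3 and 0.639 for Timp4, and of the genes named only the call of Adamts12 was lost (adjusted p = 0.0808). The direction of each member pair held when it was recomputed under these settings, a check added for the pairs after seeing the data. The spot of Timp4 was not found on 1 array, and its detection p-value was under 0.05 on 1 array.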
